A study of Mus musculus with 4 samples.

Results

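The STAT and JAK gene family was described in mouse T cells grown under a Tc9 or a Tc1 cytokine condition, with 2 expression arrays for each. The 9 genes were listed by name, as the STAT factors Stat2, Stat3, Stat4, Stat5a, Stat5b and Stat6 and the kinases Jak1, Jak2 and Jak3, and their probe sets were found through the gene symbols of the platform annotation. Of these, 8 were measured (6 STAT factors and 2 JAK kinases) among 19505 genes in all, and Jak3 is not analysed here. Each of the 8 had a single probe set. The Tc9 and Tc1 samples are total RNA from T cell cultures, taken with Trizol, labelled with biotin and run on Affymetrix arrays. In the field, Tc9 cells are interleukin 9 producers and Tc1 cells are interferon gamma producers of the CD8 lineage. The sources used here do not give the cytokines, culture times, mouse strain, age or genotype, and nothing says that the arrays numbered 1 and 2 came from separate cultures or animals. The p-values therefore measure the spread between these arrays, which may be technical.

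JAK kinases sit on the inner ends of cytokine receptors and phosphorylate the receptor and a STAT factor once a cytokine binds. The phosphorylated STAT factors pair, enter the nucleus and bind DNA. Different cytokines use different STAT factors: interleukin 12 acts mainly through Stat4, interleukin 2 and its relatives through Stat5a and Stat5b, interleukin 4 through Stat6, interleukin 6 and interleukin 21 mainly through Stat3, and type I interferon through Stat2. The arrays measure transcripts, not phosphorylation, so they show the supply of each factor's mRNA and not its activity.

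The arrays numbered 2 were brighter than those numbered 1. Medians of the deposited intensities were 37.9 and 57.1 for the Tc9 arrays numbered 1 and 2, and 37.1 and 57.3 for the Tc1 arrays. All 8 measured members were brighter than the 95th percentile of the negative control probe sets (called background below) on each of the 4 arrays, as did 6354 of all genes. The T cell genes Cd3e, a chain of the receptor complex, and Cd8a and Cd8b1, the chains of CD8, were bright in both groups, with means of at least 2713 in Tc9 and 3298 in Tc1. Of 21 measured markers of other blood cell types (mast cells with basophils, myeloid, NK, B, CD4 T and gamma-delta T cells), 20 were dimmer than that percentile on each of the 4 arrays, the exception being Cd79b, a B cell receptor chain. Their summed intensity was 863.5 and 888 on the Tc9 arrays and 783 and 861 on the Tc1 arrays. In bulk RNA, fewer cells of a type and less RNA per cell cannot be told apart. Values below are quantile normalized intensities in the order of the arrays numbered 1 and 2, a difference is Tc9 minus Tc1 on the log2(intensity + 16) scale with its SE, and a gene passed the test when limma's p, adjusted over all genes by the Benjamini-Hochberg method, was under 0.05.

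Stat4 transcript was lower in Tc9, and Stat5a and Stat5b transcripts were higher, each by close to 2-fold and with no overlap of the normalized groups, but none of the 3 differences passed the test. The measured members past it numbered 0 of 8, beside 0.574% of all genes. At an unadjusted p under 0.05 there were 3 of 8 (Stat4, Stat5a and Stat5b), beside 5.34% of all genes. By direction, 2 of 8 were higher, beside 2.96%, and 1 was lower, beside 2.38%. The median difference of the members was 0.18, beside -0.0030 for all genes. The genes were listed with earlier results of these data known, so these shares describe the list and support nothing further.

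Stat4, the factor through which interleukin 12 drives interferon gamma, had intensities of 336 and 452 in Tc9, against 734 and 952 in Tc1. Both Tc9 arrays were below both Tc1 arrays, and the lowest Tc1 value was well above the highest Tc9 value. The means were 394 ± 81.9 in Tc9 and 843 ± 154 in Tc1 (SD, n = 2 each). The difference was -1.07 ± 0.21, 2.10-fold lower, with a 95% interval of -1.56 to -0.58 and an adjusted p of 0.120 by limma. It was -1.09 in the pair of arrays numbered 1 and -1.05 in the pair numbered 2. In the values as deposited Tc9 had 0.450 and 0.476 times the Tc1 intensity within the pairs, but the groups overlapped there (239 and 583 in Tc9, against 531 and 1224 in Tc1), since the arrays numbered 2 were brighter. After normalization the array numbered 2 was still the higher one in both groups, by 0.41 in Tc9 and 0.37 in Tc1. The test counts that gap as spread within the groups. In a fit with the array number as a block the adjusted p of Stat4 was 5.73e-31 by limma, and 0.00103 without the intensity trend in the spread. The first of these fits has 1 residual degree of freedom and gives genes of like intensity 1 shared spread. Its p-values do not rest on the gene's own spread, so their small size is no measure of precision. Over all alternatives the limma adjusted p of Stat4 lay between 5.73e-31 and 1.00.

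**Figure D1:**
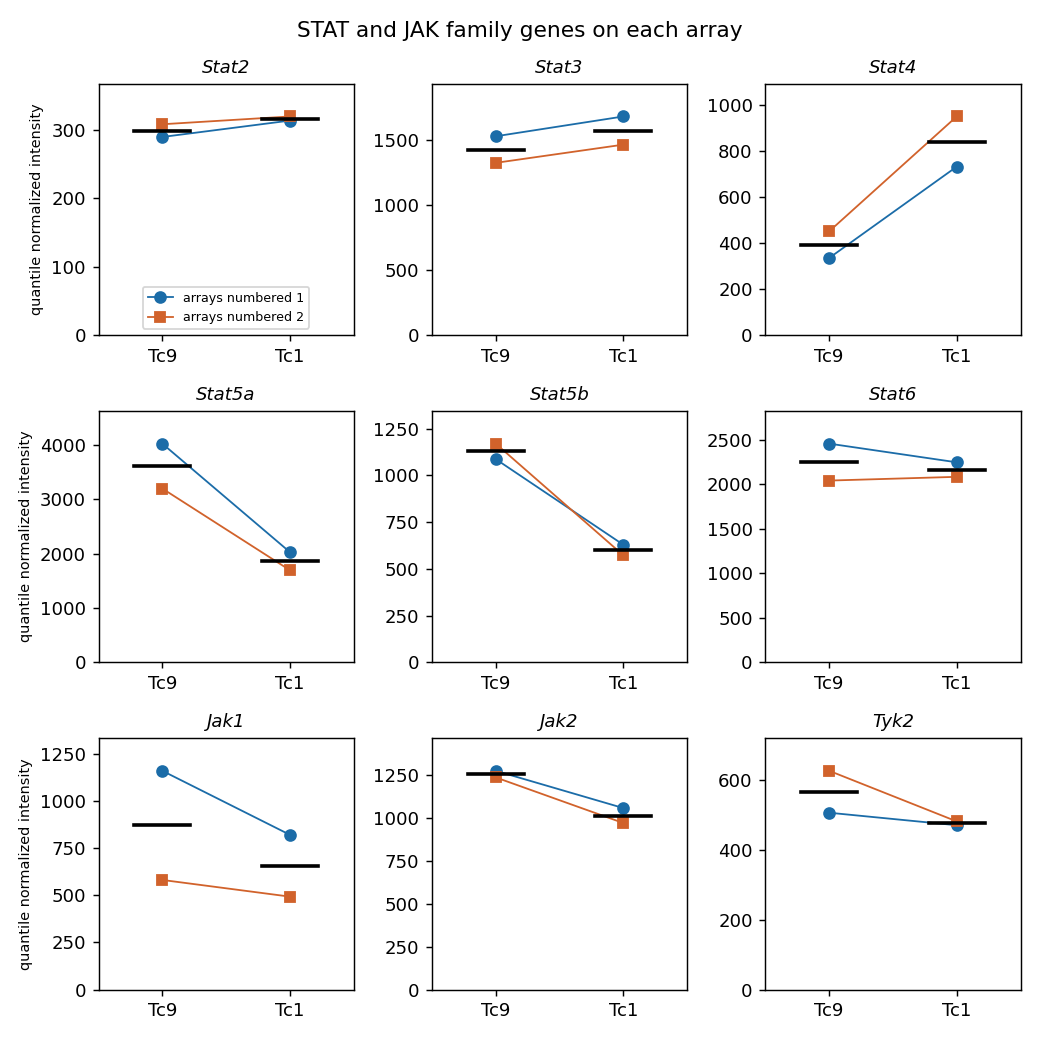
Quantile normalized intensity of the 8 measured members and of Tyk2 on each array, Tc9 left of Tc1 in each panel, with lines joining arrays of the same number and black bars at the mean of 2 arrays. Stat4 sits lower, and Stat5a and Stat5b higher, on both Tc9 arrays than on both Tc1 arrays, while the normalized values of Jak1 are split by array number.

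Stat5a and Stat5b are close relatives that carry the interleukin 2, 7, 9 and 15 signals for growth and survival. Stat5a had intensities of 4022 and 3197 in Tc9, against 2029 and 1696 in Tc1. The groups did not overlap. The means were 3609 ± 583 in Tc9 and 1862 ± 235 in Tc1 (SD, n = 2 each), a difference of 0.94 ± 0.16, or 1.92-fold, with a 95% interval of 0.57 to 1.32 (limma adjusted p = 0.0642). It was 0.98 and 0.91 in the pairs numbered 1 and 2. Stat5b had intensities of 1087 and 1170 in Tc9, against 629 and 573 in Tc1. Again both Tc9 arrays were above both Tc1 arrays. The means were 1128 ± 58.5 in Tc9 and 601 ± 39.8 in Tc1 (SD, n = 2 each), a difference of 0.89 ± 0.14, or 1.85-fold, with a 95% interval of 0.56 to 1.23 (limma adjusted p = 0.0569). It was 0.77 and 1.01 in the pairs. Of all genes ordered by p, Stat5b was number 134, Stat5a number 155 and Stat4 number 200, where 112 genes passed. With the array number as a block, the adjusted p was 5.75e-68 for Stat5a and 7.48e-28 for Stat5b by limma, and 0.00190 and 0.00369 without the intensity trend. The values with the trend again rest on a spread shared by genes of like intensity. Over the alternatives the limma adjusted p lay between 5.75e-68 and 1.00 for Stat5a and between 7.48e-28 and 1.00 for Stat5b. Transcripts of such close relatives can bind each other's probes, and how far the probe sets of Stat5a and Stat5b share signal was not tested.

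Stat5b, Stat5a and Stat3 follow one another on chromosome 11 in the RefSeq annotation, with no other protein-coding gene between them. The windows of 250 bases before the annotated starts of Stat5a and Stat5b are shown because these neighbours had similar differences, with capitals for the runs of at least 12 bases that both windows share exactly. They are RefSeq sequence of build GRCm38.p6, chr11:100860234-100860483 on the plus strand for Stat5a and chr11:100822571-100822820 on the minus strand for Stat5b. Each gene has 2 annotated starts, and the pair of windows with the longest shared run is given. In both genes the window shown belongs to the downstream start. Which start these cells use was not tested. The other pairs of a Stat5a and a Stat5b window shared no run of at least 12 bases. Whether the shared runs bear on the differences was not tested.
Stat5a: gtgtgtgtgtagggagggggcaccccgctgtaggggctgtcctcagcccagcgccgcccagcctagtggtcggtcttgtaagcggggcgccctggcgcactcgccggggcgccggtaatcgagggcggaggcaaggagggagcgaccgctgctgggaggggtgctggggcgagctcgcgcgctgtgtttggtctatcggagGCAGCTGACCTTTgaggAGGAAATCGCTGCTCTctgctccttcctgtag
Stat5b: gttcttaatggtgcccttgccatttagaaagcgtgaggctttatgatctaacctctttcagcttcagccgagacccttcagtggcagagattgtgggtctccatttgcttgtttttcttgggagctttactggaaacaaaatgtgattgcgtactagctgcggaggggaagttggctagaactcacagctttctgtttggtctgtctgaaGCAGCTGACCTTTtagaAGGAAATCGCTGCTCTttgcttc
Shared runs of 13 and 16 bases stand close to the start in both windows, the first base of the longer one at -32 in Stat5a and -23 in Stat5b. Among the 55 pairs that the 11 windows of the 8 members form, 1 other pair, of Jak1 and Stat5a, shared a run of at least 12 bases. Stat3, the third gene of this row, differed by -0.14 between the groups.

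For Stat2, Stat3 and Stat6 the 95% interval of the difference held 0. Stat3, which carries interleukin 6 and interleukin 21 signals, had intensities of 1529 and 1325 in Tc9, against 1681 and 1465 in Tc1. The groups overlapped, and the difference was -0.14 ± 0.14 with a 95% interval of -0.48 to 0.20 (-0.14 in both pairs). Stat6, the factor of interleukin 4 signals, had intensities of 2454 and 2040 in Tc9, against 2245 and 2082 in Tc1. Both Tc1 arrays lay between the Tc9 arrays. The difference of Stat6 was 0.049 ± 0.14 with a 95% interval of -0.27 to 0.37, and its sign differed between the pairs (0.13 and -0.029). Stat2, which joins Irf9 in the complex that answers type I interferon, had intensities of 289 and 308 in Tc9, against 313 and 319 in Tc1. The groups did not overlap, but the gap was small: a difference of -0.079 ± 0.17 with a 95% interval of -0.48 to 0.33. The limma adjusted p of Stat2, Stat3 and Stat6 was 1.00 each, and 0.785, 0.146 and 0.706 with the array number as a block. The intervals allow differences of up to about 0.48 in size for Stat2 and Stat3, so the test does not show that these genes were equal in the groups.

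The kinases were measured higher in Tc9 without passing the test. Jak2, the kinase of receptors such as those of interleukin 12 and interferon gamma, had intensities of 1277 and 1239 in Tc9, against 1060 and 973 in Tc1. The groups did not overlap. The difference of Jak2 was 0.30 ± 0.13 with a 95% interval of -0.0060 to 0.62 (limma adjusted p = 0.957), 0.27 and 0.34 in the pairs. Jak1, which pairs with Jak3 on receptors of the common gamma chain and also serves interferon receptors, had intensities of 1159 and 581 in Tc9, against 820 and 493 in Tc1. After normalization both arrays numbered 1 were above both arrays numbered 2, and within each number Tc9 was the higher. As deposited, the order was another: 836 and 748 in Tc9 lay above 595 and 637 in Tc1. The difference of Jak1 between the groups was 0.36 ± 0.35 with a 95% interval of -0.46 to 1.19 (limma adjusted p = 1.00), 0.49 and 0.23 in the pairs. With the array number as a block the adjusted p was 0.000186 for Jak1 and 0.000238 for Jak2, over alternatives between these values and 1.00, and without the intensity trend it was 0.113 and 0.133. Tyk2, the remaining kinase of the family and not on the list, had intensities of 506 and 626 in Tc9, against 471 and 482 in Tc1, a difference of 0.24 ± 0.17 (limma adjusted p = 1.00).

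**Figure D2:**
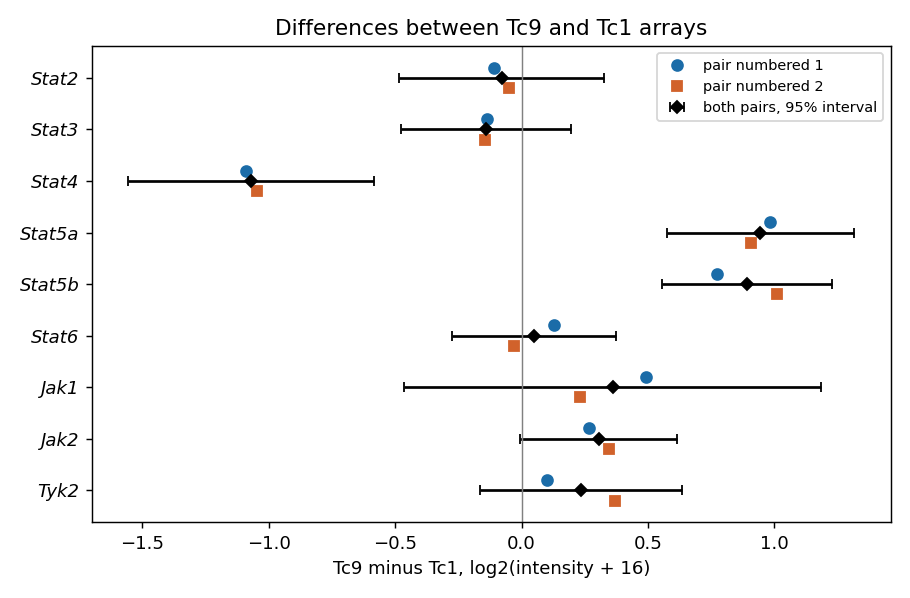
Difference between Tc9 and Tc1 for each gene on the log2(intensity + 16) scale, with the 95% interval of the limma fit (diamonds) and the values within the pairs of arrays numbered 1 and 2. The intervals of Stat4, Stat5a and Stat5b leave out 0, from -1.56 to -0.58 for Stat4, and the pairs lie close together; adjusted over all genes, no difference passed.

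Groups that did not overlap were found for 5 of the 8 members, beside 29.2% of all genes. Stat5a, Stat5b and Jak2 were higher in Tc9, beside 14.0% of all genes, and Stat4 and Stat2 lower, beside 15.2%. These counts and shares are of normalized values. As deposited the groups of Stat5a, Stat5b and Jak1 did not overlap, all higher in Tc9, while those of Stat2, Stat4 and Jak2 overlapped. The share of all genes without overlap as deposited is not given here, so nothing is read from this about the members. Under the block, 5 of the 8 passed (Stat5a, Stat5b, Jak1 and Jak2 higher, Stat4 lower), beside 14.0% of all genes, and 3 without the intensity trend (Stat4, Stat5a and Stat5b), beside 5.42%. The difference between the array numbers moved with the scaling far more than the difference between cell types did. As deposited, the median of all genes was 0.48 higher on the arrays numbered 2 than on those numbered 1, and -0.0081 after normalization. The normalized difference of array number 2 minus number 1 was -0.014 for Stat5b, 0.39 for Stat4, -0.29 for Stat5a and -0.85 for Jak1, and as deposited it was 0.80, 1.21, 0.40 and -0.030. The difference between cell types was 0.89, -1.07, 0.94 and 0.36 for these genes after normalization, and 0.88, -1.08, 0.92 and 0.35 as deposited. Relative to the median of all genes, Stat4 was thus brighter and Jak1 dimmer on the arrays numbered 2 under either scaling. Which of the differences was the larger turned with the scaling for Stat2, Stat4, Jak1, Jak2 and Tyk2. The array number and any difference between cultures cannot be told apart.

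**Figure D3:**
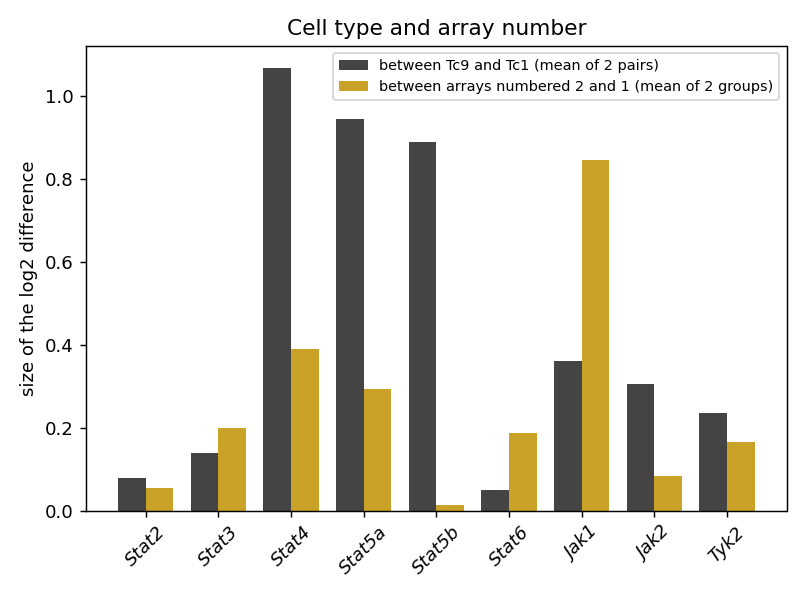
Size of the mean log2 difference between Tc9 and Tc1 (dark bars) and between the arrays numbered 2 and 1 (yellow bars), without sign, for each gene in quantile normalized values. The dark bar is the taller for Stat4, Stat5a and Stat5b, and the yellow bar for Jak1, Stat3 and Stat6; as deposited the order turns for Stat2, Stat4 (where the number difference is 1.21), Jak1 (-0.030), Jak2 and Tyk2.

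Without 1 array at a time, the sizes of the members' differences moved. Stat5a ranged from 0.78 to 1.11, Stat5b from 0.83 to 0.96 and Stat4 from -1.27 to -0.86. The difference of Jak1 was 0.85 without the Tc9 array numbered 2 and -0.13 without the Tc9 array numbered 1. In these fits 1 group holds a single array, which is assumed to vary like the others.

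The windows before the starts of the members were searched for 3 letter patterns linked to STAT binding, on both strands. TTCNNNGAA, the common STAT pattern, was in 0 of the 11 windows of the members, beside 7.02% of 32851 RefSeq windows of 250 bases. TTCNNNNGAA, the wider spacing preferred by Stat6, was in 1 of 11, beside 5.85%. TTTCNNTTTC, the pattern of interferon response elements, was in 2 of 11, beside 2.98%. The windows with a match are shown with it in capitals. They are chr1:52007990-52008239, plus strand, for the second annotated start of Stat4, and chr10:128270248-128270497, plus strand, for Stat2, in GRCm38.p6.
Stat4: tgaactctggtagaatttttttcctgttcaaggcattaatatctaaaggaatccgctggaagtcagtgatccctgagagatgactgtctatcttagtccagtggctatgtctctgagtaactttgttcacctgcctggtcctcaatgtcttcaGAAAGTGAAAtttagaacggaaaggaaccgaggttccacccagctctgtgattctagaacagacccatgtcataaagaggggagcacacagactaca
Stat2: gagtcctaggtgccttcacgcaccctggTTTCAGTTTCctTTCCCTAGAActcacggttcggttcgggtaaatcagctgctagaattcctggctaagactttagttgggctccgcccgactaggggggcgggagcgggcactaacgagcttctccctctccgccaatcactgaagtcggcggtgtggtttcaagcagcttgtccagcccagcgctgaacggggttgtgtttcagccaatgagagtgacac
In the Stat4 window the interferon response pattern stands on the minus strand, its first base at -97 from the start. In the Stat2 window that pattern begins at -222 and the wider STAT pattern at -210, and the patterns do not overlap. A match is a run of letters and was not tested as a binding site.

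Among chains of receptors that signal through JAKs, both chains of the interleukin 12 receptor fell in Tc9. Il6ra, the chain that binds interleukin 6, rose. Of 24 measured chains 1 rose and 2 fell, beside 0.395% of all genes higher and 0.179% lower, and the list median was -0.021, beside -0.0030 over all genes. Il12rb2, the chain that binds Stat4, had intensities of 78.0 and 141 in Tc9, against 826 and 1516 in Tc1, a difference of -3.22 ± 0.34 (limma adjusted p = 0.0113). Both of its Tc9 signals were below background, which leaves the size of the difference uncertain. Il12rb1, its partner chain, had intensities of 275 and 326 in Tc9, against 663 and 787 in Tc1, a difference of -1.23 ± 0.18 (adjusted p = 0.0412). Il6ra had intensities of 452 and 468 in Tc9, against 115 and 154 in Tc1, a difference of 1.68 ± 0.21 (adjusted p = 0.0189), with both Tc1 signals below background.

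Several other chains were chosen after their values were seen, and of these only Il15ra and Ifngr2 stood near the threshold. Il15ra, which presents interleukin 15, had intensities of 167 and 122 in Tc9, against 433 and 355 in Tc1 (difference -1.36 ± 0.22, limma adjusted p = 0.0627), with both Tc9 signals below background, so that its size is uncertain. Ifngr2, the interferon gamma receptor chain that carries Jak2, had 500 and 608 in Tc9, against 238 and 262 in Tc1 (1.09 ± 0.18, adjusted p = 0.0617). Neither gene's groups overlapped. Il15ra serves interleukin 15, whose signals Stat5a and Stat5b carry. Among other chains upstream of Stat5, Il2rb, Il2ra and Il7r had smaller differences. It was 0.23 ± 0.14 for Il2rb, the signalling chain shared by interleukins 2 and 15. For Il2ra, the high-affinity chain, it was -0.022 ± 0.14, and for Il7r -0.15 ± 0.20 (limma adjusted p = 1.00 for each of these genes). Il4ra, which recruits Stat6, had intensities of 2542 and 2356 in Tc9, against 1897 and 1758 in Tc1 (0.42 ± 0.12, adjusted p = 0.437).

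Of 18 measured inhibitors of the pathway 1 rose and 0 fell in Tc9, beside 0.395% and 0.179% of all genes, and the list median was 0.052. Socs2, an inhibitor that is itself a Stat5 target, had intensities of 1355 and 936 in Tc9, against 342 and 287 in Tc1, a difference of 1.79 ± 0.21 (1.94 and 1.65 in the pairs, limma adjusted p = 0.0164). Its groups were far apart. By an unadjusted p under 0.05, 3 inhibitors were higher and 0 lower, beside 2.96% and 2.38% of all genes. Cish, a second Stat5-induced inhibitor, chosen after its values were seen, had 1662 and 2224 in Tc9, against 1208 and 1535 in Tc1 (0.49 ± 0.19, adjusted p = 0.784). Of 11 partners and adaptors 0 passed, beside 0.574% of all genes. By an unadjusted limma p under 0.05, 0 were higher and 1 lower, beside 2.96% and 2.38% of all genes. With the array number as a block, 0 were higher and 3 lower, beside 6.4% and 7.56% of all genes. The smallest p there was that of Hsp90aa1, a chaperone of kinases, with 3861 and 3761 in Tc9, against 4971 and 4570 in Tc1 (-0.32 ± 0.11, adjusted p = 0.654), followed by Kpna1, a nuclear import factor (-0.31 ± 0.17, adjusted p = 1.00).

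Among genes linked to the binding of single STAT factors, the Stat4-linked list held the most genes past the test. Of its 11 measured genes 5 fell and 0 rose, beside 0.179% and 0.395% of all genes, with a list median of -0.64, beside -0.0030 over all genes. These were Gzmb, the granule protease granzyme B (469 ± 3.96 in Tc9 and 6895 ± 152 in Tc1, SD, n = 2 each), Il12rb2, Tbx21, which encodes T-bet (160 ± 31.9 and 610 ± 107), Prf1, the pore-forming protein perforin (136 ± 32.9 and 682 ± 200), and Ifng (2224 ± 161 and 4367 ± 446), with the Tc9 mean before the Tc1 mean in each. Their limma adjusted p ranged from 0.000108 to 0.0275. The lists were chosen with earlier results of these data known, so the counts describe the lists and support nothing further. Ifng encodes the cytokine by which Tc1 cells are defined, and Il12rb2 was also counted among the receptor chains. Both Tc9 signals of Prf1 and the Tc9 signal of Tbx21 on the array numbered 2 were below background, so these gaps, like that of Il12rb2, are not exact. The other 6 did not pass, and 3 of them, chosen after their values were seen, Furin, Gadd45g and Ets1, had differences above 0 (0.53, 0.40 and 0.44). At an unadjusted limma p under 0.05 these 3 were higher, beside 2.96% of all genes, and 5 genes lower, beside 2.38%. The list thus held both directions.

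Of 11 measured Stat6-linked genes 3 rose and 0 fell in Tc9, beside 0.395% and 0.179% of all genes, with a median of 0.42. The same shares stand beside the Stat5-linked and Stat3-linked counts that follow. The 3 were the chemokine receptors Ccr8 (1376 ± 282 in Tc9 and 18.6 ± 4.76 in Tc1, SD, n = 2 each) and Ccr4 (1419.5 ± 68.5 and 235 ± 68.9), and the chemokine Ccl17 (236 ± 51.0 and 42.7 ± 8.52). Both Tc1 signals of Ccr8 and of Ccl17 were below background, so the sizes of their gaps are uncertain. Il9, on the same list, had 104 and 81.6 in Tc9, against 23.4 and 26.5 in Tc1 (1.40 ± 0.24, limma adjusted p = 0.0686), below background on each array. Of 13 Stat5-linked genes 1 rose, Socs2, and 0 fell, with a median of -0.022. At an unadjusted p under 0.05, 3 of these were higher (Socs2, Cish and Bcl2), beside 2.96% of all genes, and 3 lower, beside 2.38% (Pim1, Pim2 and Lta, with differences of -0.41, -0.65 and -0.49), so that the list held both directions; all but Socs2 were chosen after their values were seen. Of 10 Stat3-linked genes 1 rose, Maf, a bZIP transcription factor (298 ± 29.1 in Tc9 and 36.4 ± 19.5 in Tc1, SD, n = 2 each, both Tc1 signals below background), with a median of -0.095. Socs3, the inhibitor best known as a Stat3 target and also chosen later, had a difference of 0.33 ± 0.25 (limma adjusted p = 1.00).

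Of the 15 measured interferon-stimulated genes linked to Stat2 with Irf9, 0 passed, 14 had a difference below 0, and by an unadjusted limma p under 0.05, 0 were higher and 7 lower, beside 2.96% and 2.38% of all genes. Of all 19505 genes, 9904 had a difference below 0. Under the block 0 were higher and 8 lower, beside 6.4% of all genes higher and 7.56% lower. The list median was -0.36. Bst2, which tethers virus particles, had intensities of 1266 and 1146 in Tc9, against 2082 and 1908 in Tc1 (-0.72 ± 0.13, adjusted p = 0.0951), and Ifih1, an RNA sensor, had 72.3 and 109 in Tc9, against 180 and 212 in Tc1 (-1.01 ± 0.26, adjusted p = 0.299). Both Tc9 signals of Ifih1 and 1 of its Tc1 signals were below background, which leaves the size of its difference uncertain. On every array 12 of the 15 were below background, where differences are not reliable.

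**Figure D4:**
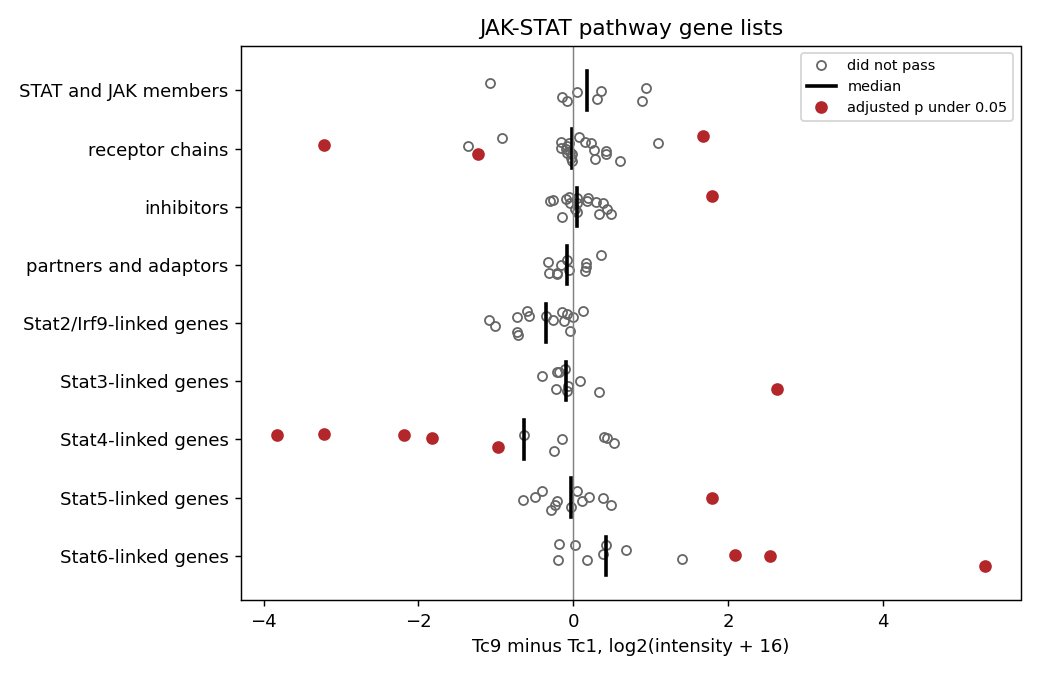
Difference between Tc9 and Tc1 on the log2(intensity + 16) scale for every measured gene of each list (points, filled red where the limma adjusted p was under 0.05), with the list median as a black bar. The Stat4-linked genes have 5 red points below 0 and the Stat6-linked genes 3 above 0, while 0 of the 8 STAT and JAK members are red.

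Stat5b had the smallest p of the members. Over the 4 arrays, the genes with the most similar profile among 9751 others of above-median intensity were Ptprj, a receptor tyrosine phosphatase that was below background on 3 arrays, Acss1, a mitochondrial acetyl-CoA synthetase, and Cerk, a ceramide kinase. Their root mean square differences from Stat5b in centred log2 values were 0.036, 0.041 and 0.043. With 4 arrays, many genes have such a profile.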

How the data were processed

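The authors deposited 1 intensity per probe set and array, for 28846 probe sets on 4 arrays. All values are positive and on a linear scale, up to 13711. The software, background correction and summarization behind them are not stated by the labels. Groups and array numbers came from the sample titles. Values of the arrays numbered 1 were written with a median of 10 digits and of those numbered 2 with 7, so within-number values are given.

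The 6640 control probe sets were left out. Of the other 22206, 19572 carried 1 gene symbol and 0 several, all with Entrez identifiers found in RefSeq, and 2634 were unnamed here. The named probe sets were quantile normalized, 16 was added, and log2 was taken. This adds little at the members' intensities but understates differences of dim genes. Of the 19505 genes, 55 had several probe sets, and the one with the highest mean was used. Limma 3.58.1 in R 4.3.3 (eBayes with an intensity trend) was fitted over all genes, without the array number in the main fit, and tested on simulated data. The simulated noise had 1 spread for all genes and no difference between array numbers. That test therefore does not show how the fit behaves where these differ, as on the real arrays. The main fit has 2 residual degrees of freedom and 5.11 prior degrees of freedom. With the array number as a block it has 1, and an infinite prior, so that genes of like intensity share 1 spread. The number of arrays limits the precision.

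The members and gene lists were chosen with earlier results of these data known. Genes named besides the members are 6 identity checks, from each list up to 5 genes past the threshold or the 2 with the smallest p where none passed, the 3 most like the member with the smallest p, and those stated to be chosen later. Alternatives were other normalizations, pseudocounts, filters, variance models and probe set rules, the block, and each array left out.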

Additional observations from a re-analysis of the deposited data

How the results depend on the processing

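The differences of Stat2, Stat3, Stat4, Stat5a, Stat5b, Jak2 and Tyk2 had the same sign under all 15 alternatives. Jak1 ranged from -0.13 (without the Tc9 array numbered 1) to 0.85, and Stat6 from -0.083 (without that array) to 0.18, with -0.0045 without the Tc1 array numbered 2. With the array number as a block, 2724 genes, 5 members and 48 of 103 pathway genes passed, and 1057, 3 and 31 without the intensity trend as well, against 112, 0 and 12. Deviations from the group means of same-numbered arrays correlated over genes with r = 0.729, but the labels do not say that a number marks a shared culture. With the values as deposited 16 genes (13 higher, 3 lower, against 77 and 35), 0 members and 4 pathway genes passed. Of the pathway genes that passed, Il12rb1, Il6ra, Socs2, Ifng, Tbx21, Prf1, Ccr4 and Ccl17 then missed the threshold (limma adjusted p from 0.272 to 1.00). Without the intensity trend alone 65 genes, 0 members and 4 pathway genes passed, and Il12rb1, Il12rb2, Il6ra, Socs2, Maf, Ifng, Tbx21 and Prf1 missed it (adjusted p from 0.0521 to 0.140). Il12rb1 also missed it with median centring (0.231) and a pseudocount of 64 (0.0527), and Il6ra with median centring (0.0688). With median centring the limma adjusted p was 0.530 for Stat4, 0.0522 for Stat5a and 0.387 for Stat5b. Without any 1 array, 185 to 275 genes, 1 to 4 members and 13 to 20 pathway genes passed. The cause of these shifts was not tested.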
